A study of Sus scrofa with 12 samples.

Results

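DLL4, DLL3, ANGPT2, VEGFD and KLF2 are 5 genes of blood vessels and of Notch signalling, followed here through fat and muscle of Dingyuan sows. They were taken from the gene tables that accompany the study, by the Ensembl identifiers given there, and make up 5 of the 31903 gene identifiers in the expression table. The study had listed them for the contrast of high with low backfat, so their values in that contrast are a description and not an independent test. That list did not use the LD muscle contrast or the comparison of the tissues, although earlier results of these data were known when the 5 genes were picked from it.

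The 12 RNA libraries came from Dingyuan pigs, a native Chinese breed, at 300 days of age, with 3 libraries in each of 4 groups. LBF and HBF were back subcutaneous fat of pigs with low and high backfat thickness, and LIMF and HIMF were longissimus dorsi (LD) muscle of pigs with low and high intramuscular fat. No treatment or allele distinguished the groups, and all animals belonged to the same population. The sample codes in the labels carry the same numbers in LBF and LIMF, and again in HBF and HIMF, but no source used here says that a shared number marks the same pig. The study reports different mean weight, backfat and intramuscular fat for LBF and LIMF pigs, and for HBF and HIMF pigs. Groups with shared numbers were therefore not made up wholly of the same animals. The p-values below measure the spread between these libraries. Values are FPKM, fragments scaled to transcript length and to the mapped fragments of the library, which can be compared between genes. The table holds no read counts, so the depth behind each value is unknown.

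The tissue labels matched their markers in all libraries, with a reservation for 1 of them. ADIPOQ, the adipocyte hormone adiponectin, was between 1498 and 4071 FPKM in back fat and at most 21.8 FPKM in muscle. TNNT3, a fast troponin of muscle fibres, was at least 2572 FPKM in muscle and at most 0.177 FPKM in 5 of the 6 fat libraries. LBF replicate 3 stood apart with 35.0 FPKM of TNNT3. For back fat, the fold changes of the 5 genes and the counts or medians of the lists are also given without it. ACTA1 and CKM, abundant genes of muscle fibres, were listed at exactly 0 in 4 and 2 of the 6 muscle libraries, so a 0 in this table can be a failed estimate. These genes were named after their values had been seen.

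As background, Notch receptors are switched on by ligands on a neighbouring cell, which leads to cleavage of the receptor and to transcription of HES and HEY genes. DLL4 is the ligand best known from arterial and sprouting endothelial cells, whereas DLL3 is a divergent ligand that does not activate receptors on neighbouring cells and is best known from segmentation of the embryo. ANGPT2 is released by endothelial cells and can block the TEK receptor that ANGPT1 activates, VEGFD is a secreted ligand of the lymphatic receptor FLT4, and KLF2 is a transcription factor that endothelial cells raise under steady blood flow. Growing fat depends on its capillaries, and subcutaneous fat and muscle differ in how much endothelium and stroma they hold.

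On RefSeq's Sscrofa11.1 annotation, DLL4 (ENSSSCG00000004755) lies on chromosome 1 from 130376720 to 130386411 and DLL3 (ENSSSCG00000002987) on chromosome 6 from 48135738 to 48155373. ANGPT2 (ENSSSCG00000015753) occupies chromosome 15 from 37544177 to 37600925, inside the span of MCPH1, which runs from 37455186 to 37674971. VEGFD (ENSSSCG00000012135) lies on chromosome X from 11893254 to 11933923, and KLF2 (ENSSSCG00000038911) on chromosome 2 from 61270733 to 61273037. Of the 5, ANGPT2 alone overlapped another annotated gene. Whether the libraries kept strand was not given in the sources used here.

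In back fat, DLL4, ANGPT2 and KLF2 were higher in each HBF library than in any LBF library, and DLL3 and VEGFD were lower. The log2 fold changes, HBF against LBF, ran from -1.15 for VEGFD to 1.59 for DLL4. No gene of the whole table passed the study's limits in limma, an adjusted p below 0.01 with a log2 fold change of 1 or more in size (0 of 16239 genes tested, 0.0%). At an unadjusted p under 0.05, 9.36% of all genes tested were higher in HBF and 4.22% lower, and all 5 of the genes described here were among them. Groups that did not overlap were found for 13.9% of all genes in the higher direction and 6.46% in the lower. As the 5 were listed from this contrast, their counts are given without a reading.

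**Figure D1:**
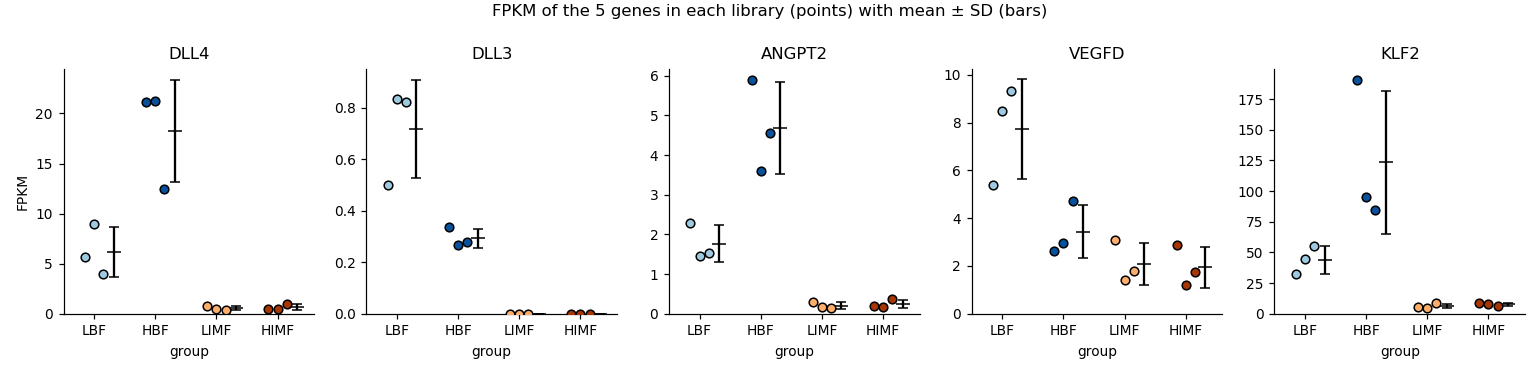
FPKM (vertical axis, a separate linear scale from 0 for each gene) of DLL4, DLL3, ANGPT2, VEGFD and KLF2 in the 4 groups, with a point for each library and bars for the mean ± SD of 3 libraries. HBF points lie above LBF points for DLL4, ANGPT2 and KLF2 and below them for DLL3 and VEGFD, and the muscle points lie near the bottom of each panel except that of VEGFD, with DLL3 listed at 0 in muscle.

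The Notch ligand DLL4 measured 5.64, 8.93 and 3.95 FPKM in LBF replicates 1, 2 and 3, and 21.1, 21.3 and 12.4 FPKM in the HBF replicates. The lowest HBF library, replicate 3, was above the highest LBF library. The means were 6.17 ± 2.53 and 18.3 ± 5.06 FPKM (SD, n = 3 each), a log2 fold change of 1.59 with a standard error of 0.34 (3.002-fold, adjusted p = 0.223, limma). In these bulk samples, more cells that carry a transcript and more of it per cell cannot be told apart.

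DLL3 was the least abundant of the 5 genes and was lower in HBF, at 0.499, 0.833 and 0.820 FPKM in LBF and 0.335, 0.268 and 0.277 FPKM in HBF. Its mean was 0.718 ± 0.189 FPKM in LBF and 0.293 ± 0.0366 FPKM in HBF (SD, n = 3 each). The log2 fold change was -1.03 with a standard error of 0.28 (adjusted p = 0.264, limma). As all 6 values were below 1 FPKM, the size of this change depended on the 0.1 FPKM added before taking logs, and with 1 FPKM added it was -0.40.

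The same values can be read as shares of the ligand transcripts, which is a description and no further difference, since DLL4 and DLL3 were listed for their levels in these libraries. Of the summed FPKM of the 5 Notch ligand genes DLL1, DLL3, DLL4, JAG1 and JAG2, DLL4 made up 14.5%, 19.8% and 9.26% in LBF and 39.0%, 32.5% and 26.3% in HBF. DLL3 made up 1.29% to 1.92% in LBF and 0.410% to 0.619% in HBF. JAG1, the ligand with the largest share in every fat library, held 51.6% to 69.3% in LBF and 44.4% to 50.1% in HBF. The JAG1 level itself was 25.9 FPKM on average in LBF and 25.7 FPKM in HBF, which is -0.02 on the log2 scale (standard error 0.15, adjusted p = 0.978, limma).

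**Figure D2:**
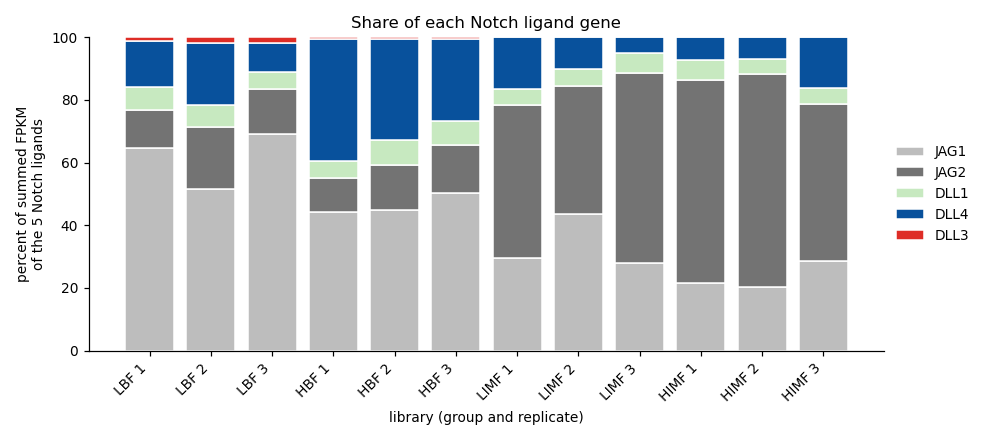
Percent of the summed FPKM of the 5 Notch ligand genes (vertical axis) held by JAG1, JAG2, DLL1, DLL4 and DLL3 in each of the 12 libraries. The DLL4 segment spans 26.3% to 39.0% in HBF and 9.26% to 19.8% in LBF, and JAG2 is the widest segment in 5 of the 6 muscle libraries.

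The receptors and the other ligands had smaller fold changes than DLL4 and DLL3. DLL4 and DLL3 had been listed under a limit on the size of this change, so that order is no separate result. Of the 7 receptors and other ligands, 5 had a positive log2 fold change (60.4% of all genes). None reached an unadjusted p under 0.05, where 9.36% of all genes were higher and 4.22% lower, and none had groups without overlap, where 13.9% were higher and 6.46% lower. NOTCH4, the receptor found mainly in endothelium, had a log2 fold change of 0.68 (standard error 0.34), NOTCH3 of mural cells 0.77 (standard error 0.36), and NOTCH1 0.52 (standard error 0.28). NOTCH2 was at -0.24 (standard error 0.15), DLL1 at 0.44 (standard error 0.26) and JAG2 at 0.21 (standard error 0.27). The median over these 7 genes was 0.44, beside 0.09 over all genes tested. It was 0.29 without LBF replicate 3, with 6 positive (60.1% of all genes) and NOTCH2 lower both at an unadjusted p under 0.05 (4.01% of all genes) and without overlap (1801 of 16192 genes).

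Of 7 Notch target genes, 6 could be tested, since HES5 was listed at 0 in all 12 libraries. HES4 was at 3.56, 3.80 and 2.36 FPKM in LBF and 5.77, 6.07 and 5.38 FPKM in HBF, so the groups did not overlap (log2 fold change 0.83, standard error 0.21, adjusted p = 0.245, limma). It was the single target with an unadjusted p under 0.05 (9.36% of all genes, higher) and the single one without overlap (13.9% of all genes, higher). HEYL, at 0.80 (standard error 0.47), HEY1, at 0.52 (standard error 0.30), HES1, at 0.20 (standard error 0.25), and HEY2, at -0.19 (standard error 0.38), had groups that overlapped. NRARP, a target that limits Notch signalling, had a log2 fold change of 1.41 with a standard error of 0.67, and its LBF replicate 3, at 3.05 FPKM, lay above 2 of the 3 HBF libraries. The median over the 6 targets was 0.66, with 5 positive (60.4% of all genes). It was 0.37 without LBF replicate 3, again with 5 positive (60.1% of all genes), with 2 targets higher at an unadjusted p under 0.05 (10.4% of all genes) and 2 without overlap (23.2% of all genes).

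Of 22 genes that process or transmit the Notch signal, 17 had a positive log2 fold change (60.4% of all genes), 2 were higher at an unadjusted p under 0.05 (9.36% of all genes) and 6 were higher without overlap (13.9% of all genes), with a median of 0.16. Leaving out LBF replicate 3, 16 were positive (60.1% of all genes), 3 were higher (10.4% of all genes) and 1 lower (4.01%) at an unadjusted p under 0.05, and 10 were higher (23.2%) and 1 lower (1801 of 16192 genes) without overlap, with a median of 0.24. With all libraries in the fit, the 2 were LFNG, whose glycosyltransferase modifies Notch receptors (0.71, standard error 0.22, adjusted p = 0.280, limma), and PSEN2, a presenilin of the cleaving complex (0.53, standard error 0.19, adjusted p = 0.320, limma). Both were named after their values had been seen.

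ANGPT2 measured 2.30, 1.45 and 1.54 FPKM in the LBF replicates, against 5.89, 3.61 and 4.55 FPKM in HBF. The HBF libraries all lay above the LBF libraries, with means of 4.68 ± 1.15 and 1.76 ± 0.467 FPKM (SD, n = 3 each). The log2 fold change was 1.36 with a standard error of 0.26 (2.57-fold, adjusted p = 0.222, limma). The standard error was the smallest of the 5 genes.

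ANGPT1, which activates TEK where ANGPT2 can block it, differed by 0.01 in back fat on the log2 scale (standard error 0.33, adjusted p = 0.989, limma). The ratio of ANGPT2 to ANGPT1 therefore stood at 1.89, 0.764 and 1.91 in the LBF libraries and at 5.67, 2.76 and 3.18 in HBF, without overlap. No test is given for this ratio, since the ANGPT2 values in it are those from which the gene was listed. The shared receptor TEK was at 0.23 (standard error 0.51), with overlapping groups. TIE1, the receptor that pairs with TEK, was higher in each HBF library (0.78, standard error 0.31, adjusted p = 0.344, limma). Of the 6 other genes of this group, 5 had a positive log2 fold change (60.4% of all genes), 2 were higher at an unadjusted p under 0.05 (9.36% of all genes) and 1 had groups that did not overlap (13.9% of all genes), with a median of 0.24. The split without LBF replicate 3 was 3 positive (60.1% of all genes) and 3 negative, with 0 at an unadjusted p under 0.05 (10.4% of all genes higher, 4.01% lower), 0 called by limma, 1 higher without overlap (23.2% of all genes) and a median of 0.12.

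VEGFD, unlike ANGPT2 and DLL4, was lower in HBF. It measured 5.37, 8.50 and 9.35 FPKM in the LBF replicates and 2.63, 2.98 and 4.71 FPKM in HBF. The highest HBF library, replicate 3, remained below the lowest LBF library, replicate 1. The means were 7.74 ± 2.09 and 3.44 ± 1.11 FPKM (SD, n = 3 each), with a log2 fold change of -1.15 and a standard error of 0.29 (adjusted p = 0.245, limma).

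The sister factors of VEGFD gave no such pattern, but VEGFD itself had been listed for its difference in this contrast. VEGFC, which shares the receptor FLT4 with it, was at 0.65 on the log2 scale (standard error 0.29), VEGFA, the main growth factor of blood vessels, at -0.40 (standard error 0.33), and PGF at 0.57 (standard error 0.31), each with overlapping groups. The ratio of VEGFD to VEGFC stood at 1.94, 1.71 and 3.39 in the LBF libraries and at 0.377, 0.578 and 1.12 in HBF. VEGFD was thus above VEGFC in every LBF library and below it in HBF replicates 1 and 2. Of the summed FPKM of VEGFA, VEGFC, VEGFD and PGF, VEGFD held 19.4%, 20.2% and 25.9% in LBF and 11.4%, 8.81% and 15.5% in HBF. The VEGFD values in the ratio and the share are those from which the gene was listed, so both are a description.

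Among the receptors, KDR, the main VEGF receptor of blood endothelium, was at 0.72 (standard error 0.37), FLT1 at 0.31 (standard error 0.35) and FLT4 at -0.27 (standard error 0.70), all with overlapping groups. FLT4 was low, between 0.155 and 1.51 FPKM in back fat, and LBF replicate 1 held the highest value. Of the 8 genes of the VEGF family and its receptors other than VEGFD, 6 were positive (60.4% of all genes), none had an unadjusted p under 0.05 (9.36% of all genes, higher), 1 was higher without overlap (13.9% of all genes), and the median log2 fold change was 0.40. When LBF replicate 3 was left out, 6 were positive (60.1% of all genes), 1 was higher at an unadjusted p under 0.05 (10.4% of all genes), and the median was 0.35.

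KLF2 was the most abundant of the 5 genes, at 32.2, 44.3 and 55.4 FPKM in LBF and 191, 95.1 and 84.3 FPKM in HBF. HBF replicate 1 lay far above the other HBF libraries, and all of them lay above LBF. The means were 44.0 ± 11.6 and 123 ± 58.5 FPKM (SD, n = 3 each), a log2 fold change of 1.42 with a standard error of 0.34 (2.68-fold, adjusted p = 0.238, limma).

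KLF4, the related factor that endothelial cells also raise under flow, had a log2 fold change of 0.74 (standard error 0.39), and its groups overlapped. The ratio of KLF2 to KLF4 stood at 1.39, 0.818 and 1.04 in the LBF libraries and at 1.89, 1.55 and 1.67 in HBF, which did not overlap. The KLF2 values in this ratio are those from which the gene was listed, so the ratio is a description. NOS3, the endothelial nitric oxide synthase and a known target of KLF2, was at 0.74 (standard error 0.36), with overlapping groups. Of 14 other genes of the flow response, 13 had a positive log2 fold change (60.4% of all genes), 6 were higher at an unadjusted p under 0.05 (9.36% of all genes) and 5 were higher without overlap (13.9% of all genes), with a median of 0.38. MAP2K5, the kinase that activates MAPK7, was lower without overlap (-0.35, standard error 0.16, adjusted p = 0.396, limma). Without LBF replicate 3 the counts were 13 positive (60.1% of all genes), 4 higher at an unadjusted p under 0.05 (10.4% of all genes), and 7 higher (23.2% of all genes) and 1 lower (1801 of 16192 genes) without overlap. PIEZO1, a channel that opens under mechanical force, measured 9.56, 10.2 and 11.7 FPKM in LBF and 20.7, 16.0 and 16.5 FPKM in HBF (0.75, standard error 0.16, adjusted p = 0.223, limma), without overlap. MAPK7, a kinase upstream of KLF2, was at 0.43 (standard error 0.13, adjusted p = 0.279, limma), also without overlap. PIEZO1, MAPK7 and MAP2K5 were named after their values had been seen.

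Markers of blood endothelium had the same sign in HBF against LBF as DLL4, ANGPT2 and KLF2, although none was called and their mean level did not pass its test. All 15 markers with an identifier had a positive log2 fold change in HBF against LBF, with a median of 0.69 and a range of 0.23 to 0.98, where 60.4% of all genes were positive. Of the 15, 6 were higher at an unadjusted p under 0.05 (9.36% of all genes), 4 were higher without overlap (13.9% of all genes), and none was called by limma. Their summed FPKM spanned 308 to 627 in LBF and 578 to 874 in HBF, and no marker was listed at 0. The mean log2 level of the 15 markers differed by 0.65 between the groups (exact permutation test, two-sided p = 0.2). Without LBF replicate 3 all 15 were still positive, with a median of 0.41, 1 unadjusted p under 0.05, and 4 without overlap, where 60.1% of all genes were positive, 10.4% were higher at an unadjusted p under 0.05 and 23.2% were higher without overlap.

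**Figure D3:**
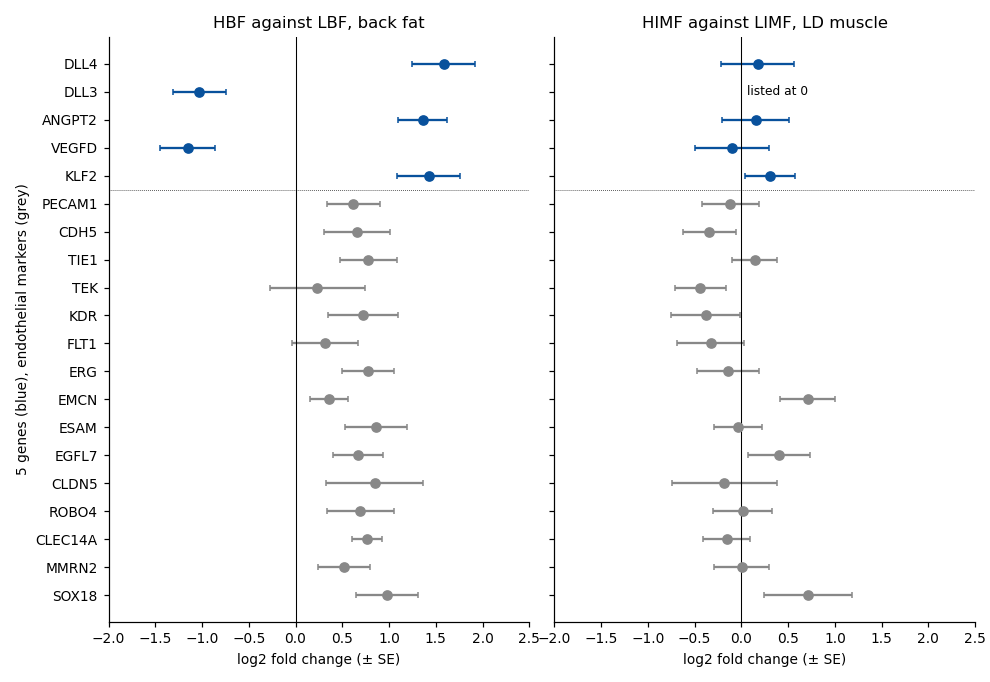
Log2 fold changes (horizontal axes, ± SE from limma) of the 5 genes in blue and 15 blood endothelial markers in grey, in back fat on the left and LD muscle on the right. In back fat all 15 markers lie to the right of 0, between 0.23 and 0.98, with DLL4, ANGPT2 and KLF2 beyond them and DLL3 and VEGFD to the left, and in muscle the 4 genes with a value lie between -0.10 and 0.30.

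The genes were also set against the level of the endothelial markers, as a description with no test, since the back fat values of these genes had chosen them. DLL4 less the mean marker level was -1.73, -1.72 and -1.86 on the log2 scale in LBF, and -0.78, -0.65 and -1.09 in HBF. That difference of 0.93 left the groups apart, and without LBF replicate 3 it was 0.89. For ANGPT2 the difference was 0.71 and the groups overlapped. For KLF2 it was 0.77, also with overlap, as LBF replicate 3 stood at 1.91 among HBF values of 2.38, 1.51 and 1.67. Without LBF replicate 3 the KLF2 difference was 1.18 and the groups did not overlap.

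On that scale the log2 change of every gene moves down by the same 0.65, the difference in marker level. The gap between LBF and HBF was therefore wider for VEGFD and DLL3, as for any gene lower in HBF. VEGFD less the marker level came to -1.80, -1.79 and -0.64 in the LBF libraries and to -3.74, -3.44 and -2.47 in HBF, a difference of -1.80. DLL3 came to -4.99, -5.00 and -4.00 in the LBF libraries and to -6.39, -6.51 and -6.14 in HBF, a difference of -1.68. Neither pair of groups overlapped, and without LBF replicate 3 the differences were -1.42 and -1.35.

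**Figure D4:**
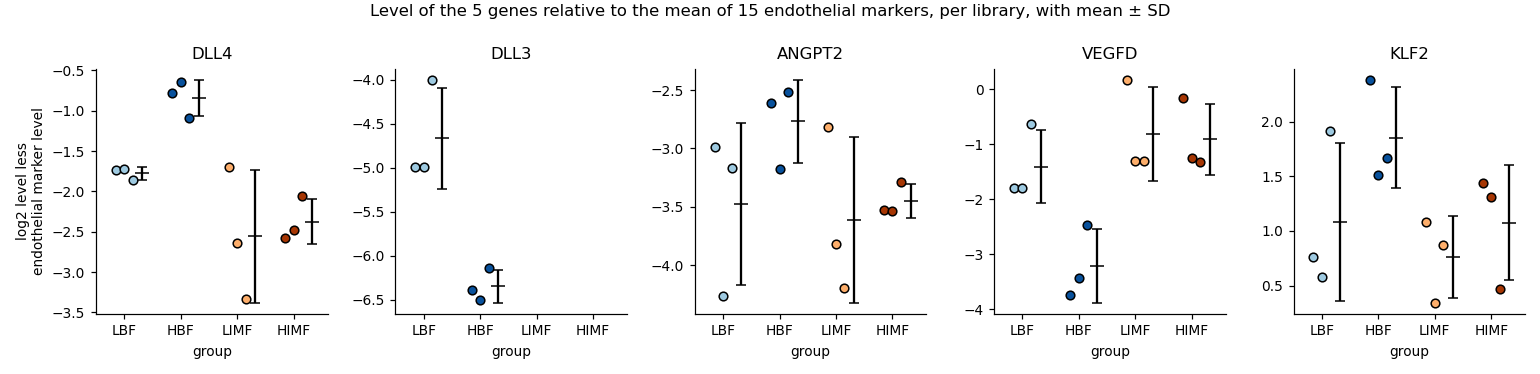
Log2 level of each of the 5 genes less the mean log2 level of 15 endothelial markers in the same library (vertical axis, a separate scale for each gene), with points for libraries and bars for the mean ± SD of 3 libraries. DLL4 in HBF lies between -1.09 and -0.65 and above all other libraries, ANGPT2 and KLF2 overlap between LBF and HBF, VEGFD is lowest in HBF, and DLL3 has no muscle points because it was listed at 0 there.

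Markers of other cells had median log2 fold changes of both signs in HBF against LBF, and none was called by limma. The median log2 fold change was 0.64 for 6 macrophage markers (5 positive), 0.43 for 8 pericyte and smooth muscle markers (6 positive), -0.27 for 7 lymphatic markers (2 positive), -0.67 for 7 stromal markers (3 positive) and 0.01 for 6 adipocyte markers (3 positive), beside 0.09 and 60.4% positive over all genes. The summed FPKM of the stromal markers spanned 2044 to 6323 in LBF and 1410 to 3237 in HBF, and that of the macrophage markers 49.9 to 139 in LBF and 122 to 133 in HBF. At an unadjusted p under 0.05, 1 pericyte and smooth muscle marker was higher, 1 adipocyte marker was higher and 1 lower, both blood markers were lower, and no lymphatic or stromal marker was among these genes. Of all genes, 9.36% were higher and 4.22% lower by that measure. Within the pericyte and smooth muscle list, TAGLN of smooth muscle was higher in every HBF library (1.30, standard error 0.26, adjusted p = 0.222, limma), whereas RGS5 of pericytes had a negative log2 fold change with overlapping groups (-0.81, standard error 0.39, adjusted p = 0.410, limma). HBB, the beta chain of haemoglobin, was lower in every HBF library, at 250, 373 and 619 FPKM in LBF and 190.2, 48.5 and 169 FPKM in HBF, and the median of the 2 blood markers was -1.49. TAGLN, RGS5 and HBB were named after their values had been seen. The 4 muscle fibre markers summed to between 0.448 and 195 FPKM in LBF, with the highest value in replicate 3, and to at most 1.43 FPKM in HBF, with a median log2 fold change of -1.98. Without LBF replicate 3 the 3 muscle fibre markers that could still be tested were all positive, with a median of 0.26. Leaving out that library also moved the macrophage markers to 6 of 6 positive (60.1% of all genes), with a median of 0.93. At an unadjusted p under 0.05, 3 macrophage markers were higher with all libraries (9.36% of all genes) and 4 without that one (10.4% of all genes). Of the pericyte and smooth muscle markers, 1 was then higher (10.4% of all genes) and 1 lower (4.01%) at an unadjusted p under 0.05. Without overlap, 1 was then higher (23.2% of all genes) and 1 lower (1801 of 16192 genes). The marker lower without overlap was RGS5. It was at 27.5 and 27.1 FPKM in LBF replicates 1 and 2 and 7.19, 16.1 and 19.9 FPKM in HBF. The other medians were then 0.30 for pericyte and smooth muscle, -0.21 for lymphatic, -0.55 for stromal, 0.09 for adipocyte and -1.25 for blood markers. The part of these markers in the values of the 5 genes was not tested.

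Leaving out LBF replicate 3 kept the direction of each of the 5 genes, as did leaving out any other fat library. Without LBF replicate 3 the log2 fold changes were 1.31 for DLL4, 1.28 for ANGPT2, 1.61 for KLF2, -0.93 for DLL3 and -0.998 for VEGFD. Over all single omissions they ran from 1.31 to 1.89 for DLL4, from 1.18 to 1.56 for ANGPT2, from 1.06 to 1.65 for KLF2, from -1.24 to -0.92 for DLL3 and from -1.40 to -0.99 for VEGFD.

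In LD muscle, the same genes showed no difference between HIMF and LIMF that exceeded the spread of the libraries. DLL4 was at 0.772, 0.499 and 0.364 FPKM in LIMF and 0.460, 0.462 and 1.01 FPKM in HIMF. ANGPT2 was at 0.301, 0.164 and 0.156 FPKM in LIMF and 0.190, 0.170 and 0.375 FPKM in HIMF. For both genes the highest value was found in HIMF replicate 3 and the next in LIMF replicate 1, and the groups overlapped. VEGFD was at 3.09, 1.40 and 1.79 FPKM in LIMF and 2.89, 1.21 and 1.75 FPKM in HIMF, and KLF2 at 5.88, 4.64 and 8.44 FPKM in LIMF and 9.002, 7.65 and 6.32 FPKM in HIMF. DLL3 was listed at 0 in all 6 muscle libraries and was not tested there.

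The log2 fold changes, HIMF against LIMF, were 0.18 for DLL4 (95% interval -0.73 to 1.08), 0.15 for ANGPT2 (-0.68 to 0.99), -0.10 for VEGFD (-1.02 to 0.81) and 0.30 for KLF2 (-0.32 to 0.92). The adjusted p-values from limma lay between 0.851 and 0.971. Intervals of this width include a 1.5-fold change in either direction for DLL4, ANGPT2 and VEGFD. Over all 14292 genes tested in muscle, limma called 0 (0.0%), with 4.51% higher and 2.52% lower at an unadjusted p under 0.05. Groups that did not overlap made up 12.7% of all genes in muscle, 7.93% higher and 4.74% lower in HIMF, and 0 of the 4 genes tested here.

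Of the 15 endothelial markers, 6 were positive and 9 negative in muscle, with a median of -0.12 where 54.0% of all genes were positive, and their mean log2 level differed by -0.01 (exact permutation test, two-sided p = 0.9). None was lower by either measure, whereas 1 marker was higher at an unadjusted p under 0.05 (4.51% of all genes) and 2 were higher without overlap (7.93% of all genes). These were EMCN, a surface protein of capillary and venous endothelium, at 1.05, 1.31 and 2.12 FPKM in LIMF and 2.19, 2.39 and 2.66 FPKM in HIMF (0.71, standard error 0.29, adjusted p = 0.701, limma), and SOX18, an endothelial transcription factor (0.71, standard error 0.47, adjusted p = 0.804, limma). Of the adipocyte markers, 5 of 6 were positive, with a median of 1.48, and none was called by limma. At an unadjusted p under 0.05, 4 of them were higher in HIMF (4.51% of all genes) and 1 was lower (2.52% of all genes), and 3 were higher and 1 lower without overlap. The lower one was LPL, the lipase that releases fatty acids from lipoproteins, at 85.1, 76.3 and 136 FPKM in LIMF against 40.4, 21.6 and 67.0 FPKM in HIMF (-1.30, standard error 0.42, adjusted p = 0.601, limma), named after its values had been seen. Of the 6 Notch targets tested, 2 were positive and 4 negative in muscle, with a median of -0.07, and 1 was higher at an unadjusted p under 0.05 (4.51% of all genes). That one, NRARP, was at 0.281, 0.178 and 0 FPKM in LIMF and 1.62, 0.772 and 0.502 FPKM in HIMF, without overlap (2.14, standard error 0.58, adjusted p = 0.544, limma). HEY2 was lower without overlap, at 0.104, 0.201 and 0.106 FPKM in LIMF and 0.0978, 0.0861 and 0.0735 FPKM in HIMF (-0.33, standard error 0.31, adjusted p = 0.863, limma). Of all genes, 7.93% were higher and 4.74% lower without overlap. The Notch receptors and ligands other than DLL4 and DLL3 ranged from -0.28 to 0.48. Of the 22 genes that process or transmit the Notch signal, 11 were positive, 1 was lower at an unadjusted p under 0.05 (2.52% of all genes), and 1 was higher and 1 lower without overlap. The flow response genes other than KLF2 split into 7 positive and 7 negative, with a median of 0.06, 1 lower at an unadjusted p under 0.05 (2.52% of all genes), and 1 higher (7.93%) and 2 lower (4.74%) without overlap. The lower ones were MEF2D, a transcription factor downstream of MAPK7, at 71.3, 66.7 and 42.0 FPKM in LIMF and 38.4, 33.2 and 35.7 FPKM in HIMF (-0.71, standard error 0.24, adjusted p = 0.623, limma), and MAP2K5 (-0.57, standard error 0.25, adjusted p = 0.707, limma). EMCN, SOX18, MEF2D and MAP2K5 were named after their values had been seen. The VEGF family other than VEGFD had 2 of 8 positive and a median of -0.26, and the angiopoietin group other than ANGPT2 3 of 6 positive and a median of -0.03, with none in either at an unadjusted p under 0.05 or without overlap. Among markers of other cells, 1 of 6 macrophage, 3 of 8 pericyte and smooth muscle, 0 of 7 stromal and 4 of 6 lymphatic markers were positive, and 1 pericyte and smooth muscle marker was lower at an unadjusted p under 0.05. Of the 4 muscle fibre markers, 3 were positive, with a median of 5.57, and 2 were higher at an unadjusted p under 0.05 (4.51% of all genes). Those 2 were ACTA1 and CKM, whose listed zeros can be failed estimates. Both blood markers were negative.

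The change in back fat was further from 0 than that in muscle for each of the 4 genes, but the difference itself did not pass the test. HBF less LBF, minus HIMF less LIMF, was 1.41 for DLL4 (95% interval 0.23 to 2.59), 1.21 for ANGPT2 (0.23 to 2.18), 1.12 for KLF2 (0.12 to 2.12) and -1.05 for VEGFD (-2.20 to 0.10). The adjusted p-values from limma were 0.434, 0.420, 0.440 and 0.529. At an adjusted p under 0.05, 0 of 15965 genes were called (0.0%), with 1628 genes at an unadjusted p under 0.05, 5.74% with a positive difference and 4.46% with a negative one. The back fat term of this difference is the contrast from which the genes were listed.

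Between the tissues, 3 of the 5 genes were separated by wide margins. DLL4, KLF2 and ANGPT2 were higher in each of the 6 back fat libraries than in any muscle library, by 15.5-fold, 10.2-fold and 9.23-fold on the log2(FPKM + 0.1) scale. The folds of DLL4 and ANGPT2 depended on the amount added before taking logs and were smaller with 1 FPKM added. For DLL4 the mean was 12.2 ± 7.53 FPKM in back fat and 0.594 ± 0.245 FPKM in muscle (SD, n = 6 each), a log2 difference of 3.96 with a standard error of 0.27 (adjusted p = 6.94e-08, limma). For KLF2 it was 83.7 ± 57.5 and 6.99 ± 1.66 FPKM, a difference of 3.35 with a standard error of 0.23 (adjusted p = 7.27e-08, limma). For ANGPT2 it was 3.22 ± 1.78 and 0.226 ± 0.0906 FPKM, a difference of 3.21 with a standard error of 0.22 (adjusted p = 8.25e-08, limma). The exact permutation test gave a two-sided p of 0.0021645 for each, the least that 6 against 6 libraries allow. In that direction 49.3% of all genes tested had tissues that did not overlap.

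These calls stand in a comparison in which limma called 56.4% of all 15965 genes tested, 47.1% higher in back fat and 9.29% lower, and in which the median gene was 0.97 higher in back fat on the log2 scale. With median-of-ratios scaling, which brought the median over all genes to 0.15, they stood at 2.99, 2.31 and 2.33, and the calls over all genes were then 4220 higher and 3410 lower in back fat.

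VEGFD differed least between the tissues. It ranged from 2.63 to 9.35 FPKM in back fat and from 1.21 to 3.09 FPKM in muscle, so the ranges overlapped (exact permutation test, two-sided p = 0.0108). The log2 difference was 1.35 with a standard error of 0.26 (adjusted p = 0.000508, limma), which is close to the shift of the median gene. With median-of-ratios scaling it was 0.34 and with quantile normalization 0.22, and limma then did not call it (adjusted p = 0.276 and 0.474). DLL3 was between 0.268 and 0.833 FPKM in back fat and listed at 0 in muscle, so that no fold is given.

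The order of the genes by mean FPKM was the same in LBF as in muscle and different in HBF. In LBF it was KLF2, VEGFD, DLL4, ANGPT2 and DLL3, with VEGFD and DLL4 overlapping. In HBF it was KLF2, DLL4, ANGPT2, VEGFD and DLL3, with ANGPT2 and VEGFD overlapping. In muscle VEGFD came directly after KLF2 without overlap, followed by DLL4 and ANGPT2, whose ranges overlapped. By group, DLL4, ANGPT2 and KLF2 ran from HBF through LBF to the muscle groups, which overlapped each other, whereas VEGFD ran from LBF through HBF to LIMF and HIMF, the last 3 overlapping in turn.

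All 15 endothelial markers were called higher in back fat (47.1% of all genes), with a median log2 difference of 2.76 and a mean level 2.80 higher (exact permutation test, two-sided p = 0.0021645). Set against that level, the tissue difference was 1.16 for DLL4 (exact permutation test, two-sided p = 0.00866), 0.55 for KLF2 (p = 0.134 by the same exact test) and 0.41 for ANGPT2 (p = 0.225 by the same exact test). VEGFD changed sign and was -1.45, lower in back fat (exact permutation test, two-sided p = 0.0368). In limma that fit called DLL4 and VEGFD (adjusted p = 0.000849 and 0.00089) and did not call KLF2 or ANGPT2. The median over all genes was -1.83 on that scale, so VEGFD lay above the median gene although its sign had changed. By group, VEGFD averaged -3.22 in HBF, -1.41 in LBF and -0.87 in muscle, and DLL4 -0.84, -1.77 and -2.47. The HBF values, part of the contrast from which both genes were listed, thus lay furthest from muscle. These tissue tests are not independent of that listing.

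Within the Notch family all 7 other ligands and receptors were also called higher in back fat by limma, with a median log2 difference of 2.73, where 47.1% of all genes were called higher and the median gene was 0.97 higher. The composition nevertheless differed, as JAG1 held more of the ligand FPKM in back fat and JAG2 more in muscle, each without overlap (exact permutation test, two-sided p = 0.0021645). JAG2 made up between 40.9% and 67.8% in muscle. DLL4 held 16.7%, 10.1% and 4.99% in LIMF and 7.31%, 6.998% and 16.2% in HIMF, which overlapped with the LBF shares. All 6 Notch targets tested were called higher in back fat, against the same 47.1% of all genes, with a median of 1.94. Other lists were mixed. Of the 14 flow response genes other than KLF2, 7 were called higher and 3 lower in back fat (47.1% and 9.29% of all genes), with a median of 1.05. Of the 22 genes that process or transmit the Notch signal, 17 were called higher and 1 lower, with a median of 1.62. The VEGF family other than VEGFD had 5 of 8 called higher and 0 lower, and the angiopoietin group other than ANGPT2 5 of 6 and 0. Among markers of other cells, 6 of 6 macrophage, 6 of 6 adipocyte, 6 of 7 stromal, 6 of 8 pericyte and smooth muscle and 2 of 7 lymphatic markers were called higher.

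The ratios within the other families also differed by tissue. ANGPT1 itself did not differ detectably between the tissues (log2 difference 0.14, standard error 0.44, adjusted p = 0.782, limma). The ratio of ANGPT2 to ANGPT1 stood at 1.42, 0.174 and 0.0551 in the LIMF libraries and at 0.147, 0.147 and 0.201 in HIMF, lower than in back fat apart from LIMF replicate 1 (exact permutation test over tissues, two-sided p = 0.00433). The ratio of VEGFD to VEGFC stood at 8.31, 1.91 and 2.16 in the LIMF libraries and at 3.68, 4.20 and 3.34 in HIMF, above 1 in every muscle library. VEGFD nevertheless held only between 3.43% and 8.60% of the summed FPKM of VEGFA, VEGFC, VEGFD and PGF in muscle, below every back fat library (exact permutation test, two-sided p = 0.0021645).

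**Figure D5:**
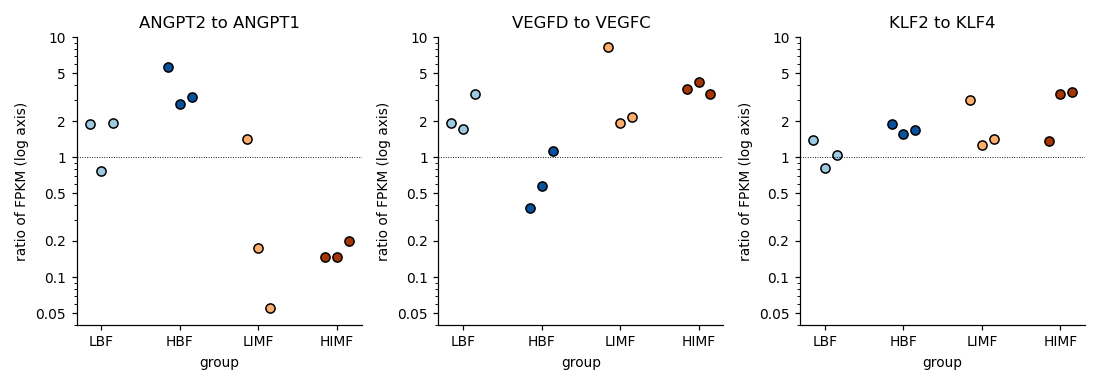
Ratio of FPKM (vertical axes, log scale, dotted line at 1) of ANGPT2 to ANGPT1, VEGFD to VEGFC and KLF2 to KLF4 in each library of the 4 groups. ANGPT2 to ANGPT1 is highest in HBF, between 2.76 and 5.67, and below 1 in 5 of the 6 muscle libraries, VEGFD to VEGFC is lowest in HBF, between 0.377 and 1.12, and KLF2 to KLF4 is above 1 in 11 of the 12 libraries.

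Across the 12 libraries, DLL4, ANGPT2 and KLF2 followed each other closely, with Pearson's r of 0.98 for DLL4 and ANGPT2, 0.95 for DLL4 and KLF2 and 0.96 for ANGPT2 and KLF2, all on log2(FPKM + 0.1). VEGFD gave 0.59 with each of the 3. DLL3 gave 0.83 with DLL4, 0.81 with ANGPT2, 0.87 with VEGFD and 0.83 with KLF2, but it was listed at 0 in 6 of the 12 libraries, which can be failed estimates. The points share the 2 tissues, whose difference enters each coefficient, and the coefficients are a description.

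Of 9844 named genes with a mean above 1 FPKM, those with a pattern most like DLL4 over the 12 libraries were MGAT3 (r = 0.99), the Notch target HES4 (r = 0.99) and DIPK2B (r = 0.99). Most like ANGPT2 were ASB6 (r = 0.99), SURF6 (r = 0.99) and CD248 (r = 0.99), and most like KLF2 were SPINDOC (r = 0.99), BDKRB2 (r = 0.99) and SNAI1 (r = 0.99). DLL3 was followed by SIDT2, CTDSP2 and FAH (r = 0.98 each).

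VEGFD was most like ABCA8 (r = 0.95), JAML (r = 0.93) and ABCA6 (r = 0.91). With the mean of each tissue removed, the same 3 genes were again the nearest to VEGFD, at 0.89, 0.86 and 0.86. For DLL4, ANGPT2 and KLF2 removing the tissue mean changed the nearest genes, to ABCC1 (r = 0.94), TFB2M (r = 0.92) and SRF (r = 0.94) in first place. SRF is a transcription factor that responds to actin and growth factor signals.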

How the data were processed

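RNA was sequenced from back subcutaneous fat and LD muscle. The authors aligned reads with HISAT2 and computed FPKM with Cufflinks 2.2.1 (DESeq2 1.25.9 is also named in the submitters' processing notes). The deposited FPKM table was used as it stands, with 7 identifiers on 2 rows summed. Gene symbols were matched to 15027 of 31903 identifiers. The authors deposited FPKM and not counts, so no count test was run. Groups came from the sample labels.

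Values were tested as log2(FPKM + 0.1) with limma 3.58.1 in R 4.3.3 (empirical Bayes with trend), over genes with a mean above 0.05 FPKM in the libraries fitted, with Benjamini-Hochberg adjustment over all genes. The limits for a call were the study's, an adjusted p below 0.01 with a log2 fold change of 1 or more in size, and for differences between tissues in the high-low change an adjusted p below 0.05. Single values were compared by exact permutation of libraries. The fits were tested on simulated data.

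The 5 genes and the lists of pathway and cell type genes were chosen with earlier results of these data known. Named genes were the 5, their receptors, sister ligands and known targets, and for each of the 5 the 3 genes with the highest correlation. Others are marked as named after their values were seen. Alternatives were other pseudocounts, filters, scalings, a replicate block, all libraries in a single fit, the endothelial marker level and each library left out.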

Additional observations from a re-analysis of the deposited data

Results flagged for a closer look

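EPS15L1, an endocytosis gene and the neighbour of KLF2 on chromosome 2, at a distance of 27606 bases, had log2 fold changes of opposite sign in the 2 tissues. It was 0.38 higher on the log2 scale in HBF than in LBF (standard error 0.13) and at -0.21 in HIMF against LIMF (standard error 0.20), and the groups overlapped in neither tissue. The difference of 0.60 between these changes did not pass the test over all genes (standard error 0.20, adjusted p = 0.385, limma). Of all genes, 13.9% were higher in HBF and 4.74% lower in HIMF without overlap. EPS15L1 was looked at for its position, after its values had been seen.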

How the results depend on the processing

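Of 317 alternative values for the 5 genes, 307 kept their direction and side of the threshold, 4 were no longer called and 6 changed sign. In muscle, leaving out a library moved DLL4 between -0.15 and 0.42 (-0.04 without LIMF replicate 3, -0.15 without HIMF replicate 3), ANGPT2 between -0.10 and 0.36 (-0.10 without HIMF replicate 3) and VEGFD between -0.41 and 0.21 (0.21 without LIMF replicate 1, 0.18 without HIMF replicate 2). Between tissues, VEGFD was 0.34 with median-of-ratios scaling, 0.22 with quantile normalization and -1.45 relative to the endothelial marker level, and on that last scale ANGPT2 was 0.41 and KLF2 0.55. With 1 FPKM added, the tissue difference of ANGPT2 was 1.68 and that of DLL4 2.85. The causes were not tested.

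The number of genes called over the whole table ranged from 0 to 2 in back fat, 0 to 5 in muscle and 8833 to 9008 between tissues when a library was left out. In the difference between tissues it ranged from 0 to 118, the 118 without LIMF replicate 3. Muscle gave 1 call with all 12 libraries in a single fit, and the tissue comparison 5864 with 1 FPKM added. The difference between tissues gave 1 call with 1 FPKM added, 1 with 0.01 FPKM added, 1 without a filter and 2 without the trend. Where leaving out a library left 2 in a group, that group's spread was taken from the fit over all groups.

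The replicate numbers were not taken as pairing the samples, since the correlation of same-numbered deviations was 0.06, 0.14 and 0.03 between LBF and HBF and -0.06, 0.01 and -0.03 between LIMF and HIMF. With the replicate block limma called 0 genes in back fat, 0 in muscle, 9000 between tissues and 0 in the difference, and the block changed no call of the 5 genes. The sample codes share numbers between fat and muscle in the same order. Between LBF and LIMF every library correlated best with its own number (0.13, 0.17 and 0.05), and between HBF and HIMF none did (-0.06, -0.07 and -0.05). With the sample code as the replicate block, an alternative added after seeing the data, limma called 8990 genes between tissues and 0 in the difference, and no call of the 5 genes changed.

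With 3 libraries a group, adjusted p-values in back fat had a lowest value of 0.128 over all genes, and FPKM without counts give no interval for a single library. For VEGFD in back fat the adjusted p from limma ranged from 0.0166 to 0.530 over the alternatives, the lowest relative to the endothelial marker level.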

Other observations

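Genes beside the 5 were looked up by position, after their values had been seen. TIMM50, a mitochondrial import gene 1074 bases from DLL3, measured 7.48, 7.28 and 6.91 FPKM in LBF and 5.88, 4.82 and 5.82 FPKM in HBF. Its groups did not overlap and it was lower in HBF, as DLL3 was (-0.39, standard error 0.15, adjusted p = 0.327, limma). Of all genes, 6.46% were lower in HBF without overlap. SELENOV, a selenoprotein gene 7055 bases from DLL3 on its other side, measured 0.311, 0.112 and 0.868 FPKM in LBF, against 0.0267, 0 and 0 FPKM in HBF. Like DLL3, SELENOV was listed at 0 in all 6 muscle libraries.

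CHAC1, the gene nearest to DLL4 at 13388 bases, measured 1.57, 7.51 and 5.19 FPKM in LBF and 3.20, 2.48 and 1.54 FPKM in HBF. Its groups overlapped, and its mean was lower in HBF (2.41 FPKM) than in LBF (4.76 FPKM), where DLL4 was higher. MCPH1, whose span contains ANGPT2, had a log2 fold change of -0.06 in back fat with overlapping groups, where ANGPT2 was at 1.36. PIR, 234 bases from VEGFD, was at -0.05 with overlapping groups, where VEGFD was at -1.15.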
